A study of Homo sapiens with 6 samples.

Results

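The transcripts of 9 genes built around the transcription factor c-MYB were followed in THP1 cells exposed to Withaferin A (WFA), out of 26485 genes listed in the count table. The 9 genes were chosen by name for their tie to c-MYB, with earlier results of these data known. They are the 3 members of the MYB family (MYB, MYBL1 and MYBL2), the acetyltransferase coactivators CREBBP and EP300, the TFIID and SAGA subunit TAF12, menin (MEN1), and the blood transcription factors LYL1 and LMO2. THP1 is an established human monocytic leukemia line that carries a KMT2A-MLLT3 fusion. WFA is a steroidal lactone from the plant Withania somnifera. One group of cultures received the DMSO vehicle and the other received WFA, both for 6 h, and each group gave 3 RNA-seq libraries from separate experiments. The study's methods give the WFA concentration as 1 μM and the sample labels as 1 mM, and the readings differ only in that unit. No genetic change is named for either group, and a single cell line stands for the disease, so the error terms cover experiments with this line and not patients.

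MYB encodes c-MYB, a DNA-binding factor of immature blood cells that activates genes of proliferation and blocked maturation, and on which many leukemias depend. It activates transcription by binding the KIX domain of the acetyltransferases CBP (CREBBP) and p300 (EP300). A-MYB (MYBL1) and B-MYB (MYBL2) are its paralogs, and B-MYB works with the MuvB complex on genes of cell division. TAF12 is a histone-fold protein of the general factor TFIID and of the coactivator complex SAGA, menin tethers KMT2A proteins to chromatin, and LYL1 and LMO2 sit together in a complex of blood progenitors.

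Upstream sequences were examined because the data compare transcript levels of paralogs. RefSeq windows on GRCh38.p14 could be matched for 7 of the 9 genes, in 9 windows, with none for MYBL1 and LMO2. The 4 recognition words of c-MYB, TAACGG and TAACTG as well as CAACGG and CAACTG, were searched on both strands from 250 bases before to 50 bases after the start. TAF12 was the 1 member with a match, TAACTG on the strand opposite to the gene. Read along the gene, the matched stretch began 174 bases before the start. Of all 35116 windows, 9024 (25.7%) held at least 1 of the 4 words. A second word, TTGGCGGGA, of the kind that E2F factors recognise, was chosen after the windows of MYB and MYBL2 had been read. Within the 250 bases before the start it was present in both of these genes on the gene's own strand, in 2 of the 7 members, and in 97 of 35116 windows (0.276%). It began 60 bases before the start of MYB and 41 bases before that of MYBL2. Because the word was picked from these 2 windows, its presence in both was fixed by that choice and is no test. The lines below show the 29 bases around the word in the MYB and MYBL2 windows, with the word in capitals. They lie at chr6:135181238-135181266 and chr20:43667063-43667091, both on the plus strand. In GENCODE 29 an alternative MYBL2 transcript starts further upstream, so that the MYBL2 word lies in its first exon. The last line gives the whole 250 bases before the start of MYB, the member with the largest change of the 9, at chr6:135181058-135181307, plus strand.
MYB word: ggcgccagatTTGGCGGGAgggggagtgt
MYBL2 word: gccgacgcgcTTGGCGGGAgatagaaaag
MYB upstream: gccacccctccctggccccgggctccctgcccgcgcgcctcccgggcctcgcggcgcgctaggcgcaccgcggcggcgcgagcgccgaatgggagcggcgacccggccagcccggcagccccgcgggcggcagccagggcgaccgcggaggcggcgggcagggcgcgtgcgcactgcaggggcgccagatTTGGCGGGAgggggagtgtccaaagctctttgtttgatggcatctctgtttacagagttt
These matches describe the letters of the windows and were not tied to any measurement of binding.

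The libraries held between 11006035 and 13872810 counts, and the 9 genes had between 195 and 5701 counts each in a library. Levels are given as CPM, the counts divided by a library size that TMM factors had corrected for differences in composition. The 100 most counted genes took 17.5% to 19.8% of the counts with DMSO and 23.2% to 23.5% with WFA. Of 11 monocytic and myeloid markers, 6 were called lower and 5 were not called, and their summed level ranged from 2718 to 3338 CPM with DMSO and from 2246 to 3075 CPM with WFA. Of 10 markers of other cell types, the summed level was 357 to 403 CPM with DMSO and 319 to 337 CPM with WFA, nearly all of it PECAM1, which monocytes make too. HBB and PPBP, markers of red cells and platelets, had no count in any library, which allows up to 3 counts per library. COL1A1, a fibroblast collagen, went from 0.453 ± 0.333 to 9.95 ± 2.27 CPM (SD, n = 3 each). The part of these shifts in the results that follow was not tested.

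Of the 9 genes, 3 were called higher with WFA (CREBBP, EP300 and TAF12), 3 lower (MYB, MYBL1 and LMO2), and 3 were not called (MYBL2, MEN1 and LYL1). A call is an adjusted p at or under 0.05 in edgeR's quasi-likelihood test, with the Benjamini-Hochberg correction taken over all 12854 genes tested. The same test and adjustment stand behind every adjusted p below, except those of ratios between members. Among all genes tested, 25.8% were called higher and 24.7% lower, so 3 of 9 members in a direction is close to that background. The WFA libraries lay above all DMSO libraries for 3 members, against 29.6% of all genes tested, and below all of them for 3 members (MYB, MEN1 and LMO2), against 28.5%. The median log2 fold change was -0.21 over the 9 members and 0.02 over all genes tested. All 9 passed the filter on low counts.

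**Figure D1:**
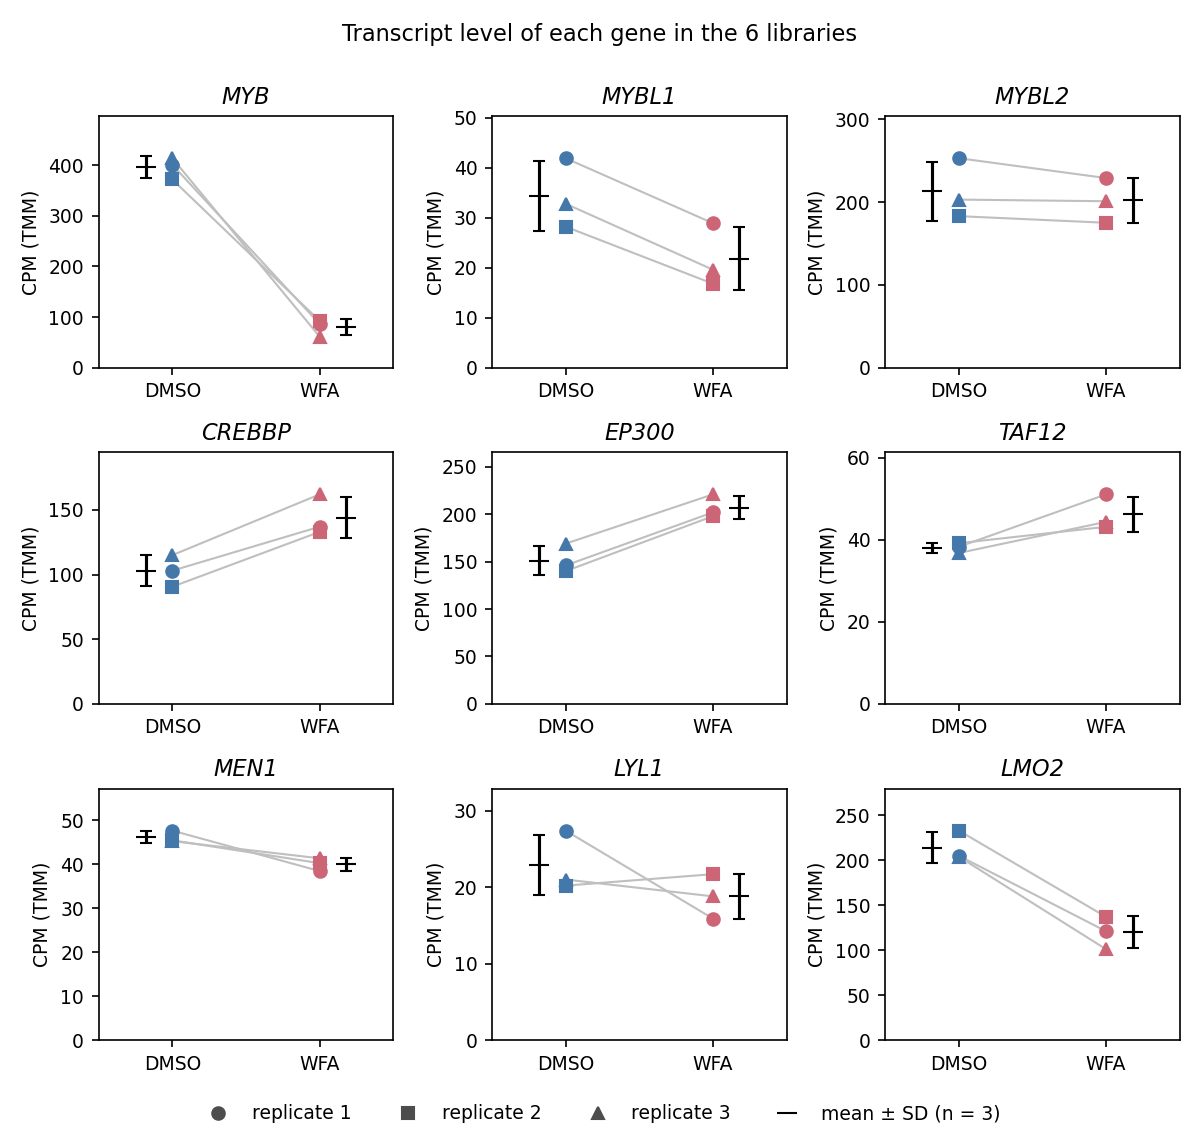
Level of each of the 9 genes in CPM (y axis, from 0) in the 3 DMSO and 3 WFA libraries (x axis), with grey lines joining libraries of the same replicate number and black bars giving the mean ± SD. MYB went from 396 to 80.2 CPM, CREBBP, EP300 and TAF12 were higher in every WFA library, and the 2 groups of MYBL2 overlapped.

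MYB transcript was strongly reduced by WFA. The 3 DMSO libraries had 401, 372 and 414 CPM and the 3 WFA libraries had 86.5, 92.6 and 61.4 CPM. All WFA libraries lay far below all DMSO libraries, and within each group the values stayed close together. The means were 396 ± 21.7 and 80.2 ± 16.5 CPM (SD, n = 3 each), a 4.93-fold lower level. On the log2 scale the change was -2.30 (standard error 0.13, 95% interval -2.57 to -2.03, edgeR adjusted p = 2.89e-09). It was present in each same-numbered pair of libraries, at -2.21, -2.0 and -2.75. Of the 12854 genes tested, MYB had the 43rd lowest log2 fold change, with 0.327% of genes lower. Among the 747 genes at least as abundant as MYB, its fold change was the 2nd lowest. In bulk RNA, fewer cells that express a gene and less RNA per cell cannot be told apart. MYB lies at chr6:135181315-135219173 on the plus strand (GRCh38, GENCODE 29). Its exons share 103 bases, 1.88% of their length, with the antisense gene MYB-AS1, and the TruSeq kit named in the labels does not mark strand, so reads from the 2 genes cannot be told apart there.

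MYBL2, by contrast with MYB, was not called. It is on chromosome 20 at 43667019-43716496. The DMSO libraries had 253, 183 and 203 CPM and the WFA libraries 229, 175 and 201 CPM. Each WFA library stood close to the DMSO library of its own number, and the groups overlapped throughout. The means were 213 ± 35.8 and 202 ± 27.1 CPM (SD, n = 3 each), and the estimated log2 difference was -0.08 (standard error 0.12, adjusted p = 0.609 from edgeR). The 95% interval from -0.34 to 0.18 leaves out a change of MYB's size in either direction but not a small one. The sign of the estimate depended on single libraries, since it was 0.06 without DMSO replicate 1 and 0.01 without WFA replicate 2.

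MYBL1 was the least abundant of the family and fell, though its groups overlapped. It lies on chromosome 8 at 66562175-66614247 on the minus strand. Its level was 41.9, 28.2 and 32.8 CPM with DMSO, and 28.9, 16.8 and 19.6 CPM with WFA. Replicate 1 was the highest in both groups, and its WFA library exceeded DMSO replicate 2. Each WFA library was nevertheless below the DMSO library of its number, by -0.53, -0.74 and -0.74 on the log2 scale. Its mean was 34.3 ± 6.95 CPM with DMSO and 21.8 ± 6.32 CPM with WFA (SD, n = 3 each), and edgeR estimated a change of -0.65 on the log2 scale (standard error 0.18, 95% interval -1.04 to -0.27, edgeR adjusted p = 0.00717).

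The difference between MYB and MYBL2 was examined as a log2 ratio within each library. The ratio of MYB to MYBL2 in CPM was 0.66, 1.02 and 1.03 with DMSO and -1.40, -0.91 and -1.71 with WFA. These ratios are not corrected for length, so they show the change of MYB relative to MYBL2 and not which of them was the more abundant, and all WFA ratios lay below all DMSO ratios. The difference of -2.25 had p = 0.1 in a two-sided exact permutation test, the smallest that 3 libraries against 3 can give, and 0.167 after adjustment over the 5 ratios examined.

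**Figure D2:**
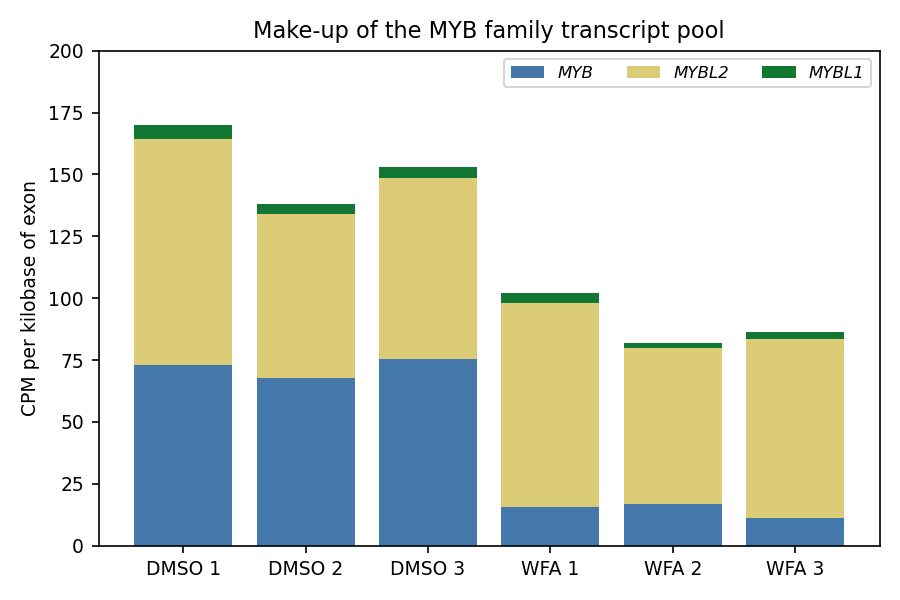
Sum of the MYB, MYBL2 and MYBL1 levels in CPM per kilobase of exon (y axis, from 0) in each of the 6 libraries (x axis), split by gene. The MYB share was 43% to 49.3% with DMSO and 12.9% to 20.5% with WFA, and MYBL2 made up most of what remained.

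To compare levels between genes, CPM was divided by the length of the merged exons in GENCODE 29. The family pool went from 153 ± 16.1 to 90.3 ± 10.6 CPM per kilobase (SD, n = 3 each). MYB made up 43%, 49.2% and 49.3% of that pool in the DMSO libraries and 15.4%, 20.5% and 12.9% in the WFA libraries. The share of MYBL2 went from 49.8% ± 3.31 to 80.4% ± 3.65 (SD, n = 3 each). For both shares the groups did not overlap, and the two-sided exact permutation test gave p = 0.1, the smallest it allows. The share of MYBL1 was 3.07% ± 0.3 and 3.29% ± 0.555 (SD, n = 3 each; exact permutation p = 0.6). Because the shares are parts of the same pool, the rise of the MYBL2 share mirrors the fall of the MYB share and is no separate result. With the longest transcript as the length, MYB averaged 108 and MYBL2 78.8 CPM per kilobase with DMSO, and 21.8 and 74.6 with WFA. The shares therefore depend on the length used.

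Transcripts of both acetyltransferases through which c-MYB works rose modestly. The study saw no significant change in CBP expression in THP1 cells after 6 h of WFA. Its main text does not say whether RNA or protein was measured. CREBBP, at chr16:3725054-3880726 on the minus strand, had 103, 90.6 and 115 CPM with DMSO and 137, 133 and 162 CPM with WFA. The lowest WFA library was above the highest DMSO library. Its mean rose from 103 ± 12.2 to 144 ± 15.8 CPM (SD, n = 3 each), or 1.4-fold. The log2 fold change was 0.49 (standard error 0.10, 95% interval 0.27 to 0.71, edgeR adjusted p = 0.00117). All 3 pairs showed the rise, by 0.42, 0.56 and 0.50.

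EP300, at chr22:41091786-41180079 on the plus strand, moved in the same direction and by a like amount. Its level was 146, 140 and 169 CPM with DMSO and 202, 198 and 221 CPM with WFA. No WFA library overlapped the DMSO group, and replicate 3 was the highest of both. The mean rose from 151 ± 15.3 to 207 ± 12 CPM (SD, n = 3 each), 1.37-fold, which edgeR estimated as 0.45 on the log2 scale (standard error 0.09, 95% interval 0.25 to 0.65, edgeR adjusted p = 0.000877). EP300 exons share 107 bases with an antisense gene, AL035658.1, and 54 bases with the microRNA gene MIR1281.

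Between CREBBP and EP300 the balance moved by less than the spread between libraries. The log2 ratio of CREBBP to EP300 averaged -0.56 ± 0.06 with DMSO and -0.52 ± 0.07 with WFA (SD, n = 3 each), a difference of 0.04 (two-sided exact permutation p = 0.7, adjusted p = 0.7). Without WFA replicate 3 this difference was -0.01. Against its coactivator, MYB dropped in every library. The log2 ratio of MYB to CREBBP was 1.96, 2.03 and 1.85 with DMSO and -0.67, -0.52 and -1.40 with WFA, a difference of -2.81 (exact permutation p = 0.1, adjusted p = 0.167).

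TAF12 had the smallest of the called changes, and its call was lost under more alternatives than that of any other of the 6 called members. This subunit, at chr1:28589323-28643085 on the minus strand, had 38.3, 39.2 and 36.8 CPM with DMSO and 51.1, 43.2 and 44.4 CPM with WFA. The DMSO libraries lay within a narrow range, and WFA replicate 1 stood above the other WFA libraries. It averaged 38.1 ± 1.22 CPM and, with WFA, 46.3 ± 4.26 CPM (SD, n = 3 each), and edgeR estimated a change of 0.28 on the log2 scale (standard error 0.10, 95% interval 0.07 to 0.49, edgeR adjusted p = 0.0292). The adjusted p was 0.0681 with DESeq2 and 0.115 with scaling to total counts. It was 0.0746, 0.0623 and 0.0812 without DMSO replicate 1, 2 or 3, and 0.116 without WFA replicate 1.

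MEN1, at chr11:64803510-64811294 on the minus strand, was lower in every WFA library but was not called. Its level was 47.6, 45.4 and 45.2 CPM with DMSO and 38.4, 40.2 and 41.3 CPM with WFA. The 2 groups were tight and did not overlap. The means were 46.1 ± 1.36 and 40 ± 1.47 CPM (SD, n = 3 each), and the estimated log2 difference was -0.21 (standard error 0.09, 95% interval -0.40 to -0.01, edgeR adjusted p = 0.0769). With scaling to total counts, which lowers the median gene from 0.02 to -0.06, the change was -0.29 with an adjusted p of 0.0178. MEN1 and TAF12 went opposite ways, and the log2 ratio of MEN1 to TAF12 was 0.27 ± 0.06 with DMSO and -0.21 ± 0.18 with WFA (SD, n = 3 each; exact permutation p = 0.1, adjusted p = 0.167).

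LMO2, the bridging LIM protein of the progenitor complex, fell, and its partner LYL1 was not called. LMO2 lies at chr11:33858576-33892289 on the minus strand. Its level was 205, 233 and 204 CPM with DMSO and 121, 137 and 101 CPM with WFA. Replicate 2 was the highest of both groups, and every WFA library was well below every DMSO library. The mean went from 214 ± 16.9 to 120 ± 17.9 CPM (SD, n = 3 each), 1.79-fold lower, which edgeR estimated as -0.84 on the log2 scale (standard error 0.11, 95% interval -1.07 to -0.61, edgeR adjusted p = 1.41e-05). The paired differences were -0.76, -0.77 and -1.01.

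LYL1, a basic helix-loop-helix factor at chr19:13099033-13103161 on the minus strand, was the least counted of the 9 genes. The study saw no significant change in LYL1 expression with WFA. As for CBP, its main text does not say whether RNA or protein was measured. It had 27.4, 20.2 and 21 CPM with DMSO and 15.9, 21.7 and 18.8 CPM with WFA. DMSO replicate 1 stood above the rest, WFA replicate 2 lay above 2 of the DMSO libraries, and the groups overlapped. The means were 22.9 ± 3.96 and 18.8 ± 2.91 CPM (SD, n = 3 each), and the estimated log2 difference was -0.28 (standard error 0.15, 95% interval -0.60 to 0.03, edgeR adjusted p = 0.126). The pairs differed in sign, at -0.78, 0.10 and -0.16. With the replicate number as a block the adjusted p was 0.0285, and without WFA replicate 2 the change was -0.40 with an adjusted p of 0.0487. Without DMSO replicate 1 or WFA replicate 1, the libraries that lie farthest apart, it was -0.13 (adjusted p = 0.513) and -0.17 (adjusted p = 0.381) in edgeR. The log2 ratio of LYL1 to LMO2 went from -3.23 ± 0.32 to -2.66 ± 0.25 (SD, n = 3 each; exact permutation p = 0.2, adjusted p = 0.25).

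**Figure D3:**
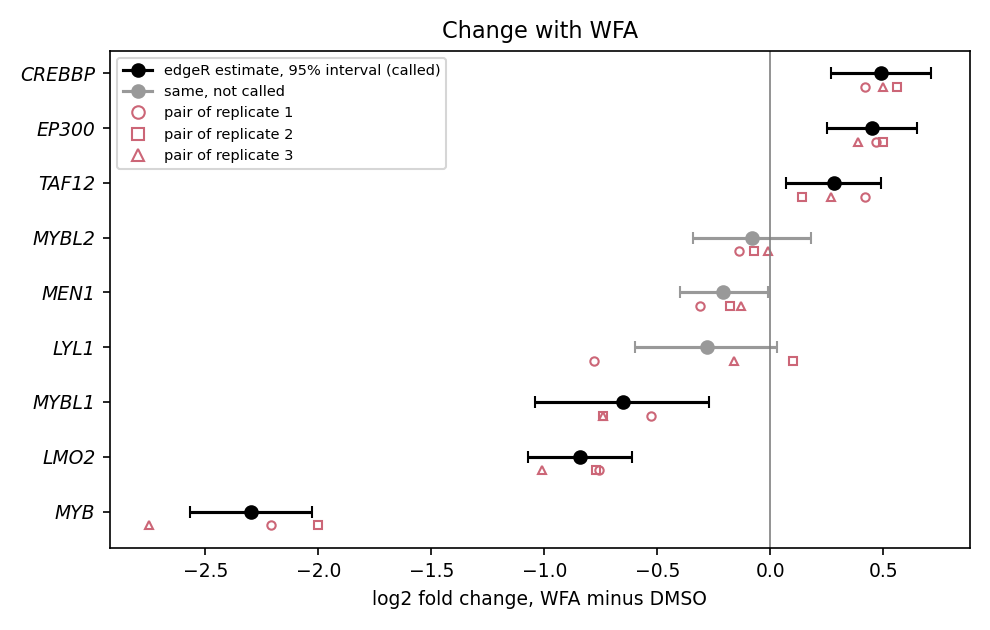
Change of each of the 9 genes as log2 fold change, WFA minus DMSO (x axis), with the edgeR estimate and its 95% interval in black for called genes and grey for the others, and the 3 same-numbered pairs as open symbols. MYB stands apart at -2.30, while the 3 called rises lie between 0.28 and 0.49.

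Per exon length, MYBL2, MYB and LMO2 were the most abundant of the 9 transcripts with DMSO, at 76.7 ± 12.9, 72 ± 3.95 and 68.8 ± 5.44 CPM per kilobase (SD, n = 3 each). Each of these overlapped its neighbour in the order, so their ranks were not separated by the spread. TAF12 came next at 16.3 ± 0.521, followed by EP300 at 12.1 ± 1.22 and MEN1 at 10.8 ± 0.319 CPM per kilobase, where EP300 and MEN1 overlapped. LYL1 at 7.34 ± 1.27 and CREBBP at 6.63 ± 0.788 overlapped as well, and MYBL1 was the lowest at 4.74 ± 0.96 CPM per kilobase. When the longest transcript was used as the length, MYB was the first and MYBL2 the third.

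With WFA, MYB left the group of abundant transcripts. MYBL2 had the highest mean, 72.6 ± 9.76 CPM per kilobase, and LMO2 followed at 38.5 ± 5.77 (SD, n = 3 each), without overlap. TAF12 was at 19.8 ± 1.82 and EP300 at 16.6 ± 0.959, and MYB, at 14.6 ± 3.01 CPM per kilobase, overlapped EP300. Below them, MEN1 at 9.41 ± 0.347 and CREBBP at 9.32 ± 1.02 overlapped, which put CREBBP above LYL1 at 6.04 ± 0.933. MYBL1 was the lowest in both groups, at 3.01 ± 0.874 CPM per kilobase with WFA.

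**Figure D4:**
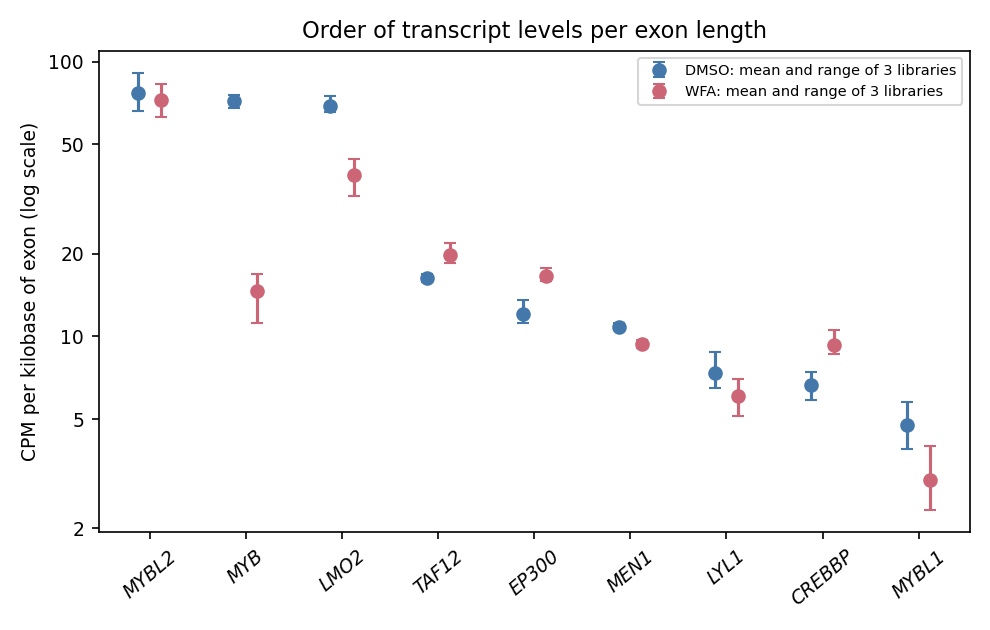
Level of the 9 genes in CPM per kilobase of merged exon (y axis, log scale) in the order found with DMSO (x axis), as the mean and the range of 3 libraries per group. MYB went from 72 to 14.6 and LMO2 from 68.8 to 38.5. MYBL2 had the highest mean in both groups, though with DMSO its range overlapped that of MYB.

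Genes of the same pathways were counted on 7 lists written from general knowledge, with earlier results of these data known, and the share of each list called higher or lower is set beside the 25.8% and 24.7% found over all genes tested. Of 18 genes described as c-MYB targets, 15 were tested, 8 (53.3%) were lower, 1 (6.67%) was higher and 6 were not called, with a median log2 fold change of -0.67 against 0.02 for all genes. GFI1, a transcriptional repressor in blood cells, fell from 176 ± 7.32 to 27.5 ± 0.814 CPM (SD, n = 3 each; log2 fold change -2.68, edgeR adjusted p = 1.79e-11). MYC, a driver of growth, fell by 2.21 on the log2 scale (adjusted p = 2.49e-10), close to the change of MYB. The study had already marked GFI1, MYC, IRF8 and IRX3 as c-MYB targets in a plot of these same data. It reported there that known targets were reduced, so these falls are not a separate finding. The chemokine receptor CXCR4 fell by 1.45 (adjusted p = 1.59e-08). PTGS2, the inducible cyclooxygenase, was the 1 gene called higher, at 0.49 (adjusted p = 0.0432). That call was absent without DMSO replicate 1 (0.132), DMSO replicate 2 (0.0833), DMSO replicate 3 (0.062), WFA replicate 2 (0.0875) or WFA replicate 3 (0.119) and with DESeq2 (0.138), total counts (0.0907) or no filter on low counts (0.0638), and the count of higher targets was 3 with the replicate block.

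Around LMO2 and LYL1, 22 of 25 listed complex members and cooperating factors were tested, 12 (54.5%) were lower, 6 (27.3%) higher and 4 not called, with a median of -0.30. CBFA2T3, a corepressor that joins the LMO2 complex, fell by 1.73 on the log2 scale (edgeR adjusted p = 2.35e-07). RUNX1 fell by 1.15 (adjusted p = 3.49e-07) and IKZF1 by 1.03 (adjusted p = 7.4e-07), both DNA-binding factors of blood formation. SSBP3, which binds the LMO2 partner LDB1, rose by 0.68 (adjusted p = 1.33e-05). TAL1, LYL1's closest relative, GATA1 and LMO1 were too low to be tested.

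All 16 listed partners of CBP and p300 and other acetyltransferases were tested, 4 (25%) were higher, 4 (25%) lower and 8 not called, with a median of -0.01. Both shares were close to those over all genes tested. NCOA2, a nuclear receptor coactivator that binds both proteins, rose from 56.5 to 96.9 CPM (log2 fold change 0.78, edgeR adjusted p = 1.94e-05). Its relatives NCOA1 and NCOA3, named after their values were seen, also rose, by 0.68 and 0.62 (adjusted p = 0.000151 and 6.1e-05). CREB1, the factor for which CBP was named, fell by 0.65 (adjusted p = 1.97e-05), and CITED2, which competes for a CBP domain, fell by 0.83 (adjusted p = 3.67e-05).

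Among TFIID and SAGA subunits other than TAF12, 30 of 31 were tested, 3 (10%) were higher, 8 (26.7%) lower and 19 not called, with a median of -0.09. TAF4B, a paralog of TAF4, the histone-fold partner of TAF12, fell from 27.7 ± 4.93 to 6.96 ± 0.922 CPM (SD, n = 3 each; log2 fold change -1.99, edgeR adjusted p = 1.32e-07). TAF4 itself had 7.57 and 7.3 CPM and was not called. TAF5L, a SAGA subunit, fell by 0.52 (adjusted p = 0.000325). ATXN7L3, of the SAGA deubiquitinase, rose by 0.63 (adjusted p = 4.8e-05). TAF9 was listed at 0 in every library. Whether this came from a lack of transcript or from how reads were assigned to genes was not tested.

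Of 19 genes of the menin-KMT2A and elongation complexes, 7 (36.8%) were lower, 3 (15.8%) higher and 9 not called, with a median of -0.18. JUND, a factor that binds menin, rose from 34.7 to 86.6 CPM (log2 fold change 1.32, edgeR adjusted p = 4.5e-08). WDR5 and ASH2L, core subunits of the KMT2 methyltransferases, fell by 0.80 and 0.56 (adjusted p = 3.26e-06 and 3.99e-05). KMT2A was at 0.08 and not called (adjusted p = 0.545), and gene counts do not separate the fusion transcript from the normal ones.

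For the MuvB and DREAM complexes in which B-MYB works, 12 of 12 listed subunits were tested, 4 (33.3%) were lower, 2 (16.7%) higher and 6 not called, with a median of -0.12. E2F5 fell by 1.69 on the log2 scale from 5.79 to 1.8 CPM (edgeR adjusted p = 0.000129), and the pocket protein RBL1 fell by 0.47 (adjusted p = 0.00236). LIN52, a MuvB core subunit, rose by 0.48 (adjusted p = 0.0052).

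Among 13 enzymes and cofactors described as acting on the c-MYB protein, 3 (23.1%) were higher, 2 (15.4%) lower and 8 not called, with a median of 0.03. With the replicate block, 5 were higher. PPID, a cyclophilin that binds c-MYB and is also an HSP90 cochaperone, rose from 83.3 ± 7.49 to 238 ± 6.95 CPM (SD, n = 3 each; log2 fold change 1.51, edgeR adjusted p = 5.45e-09). PIM1, a kinase, rose by 1.30 (adjusted p = 8.7e-06). CUL1, the scaffold of the ubiquitin ligase that acts with FBXW7, fell by 1.05 (adjusted p = 1.12e-07).

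**Figure D5:**
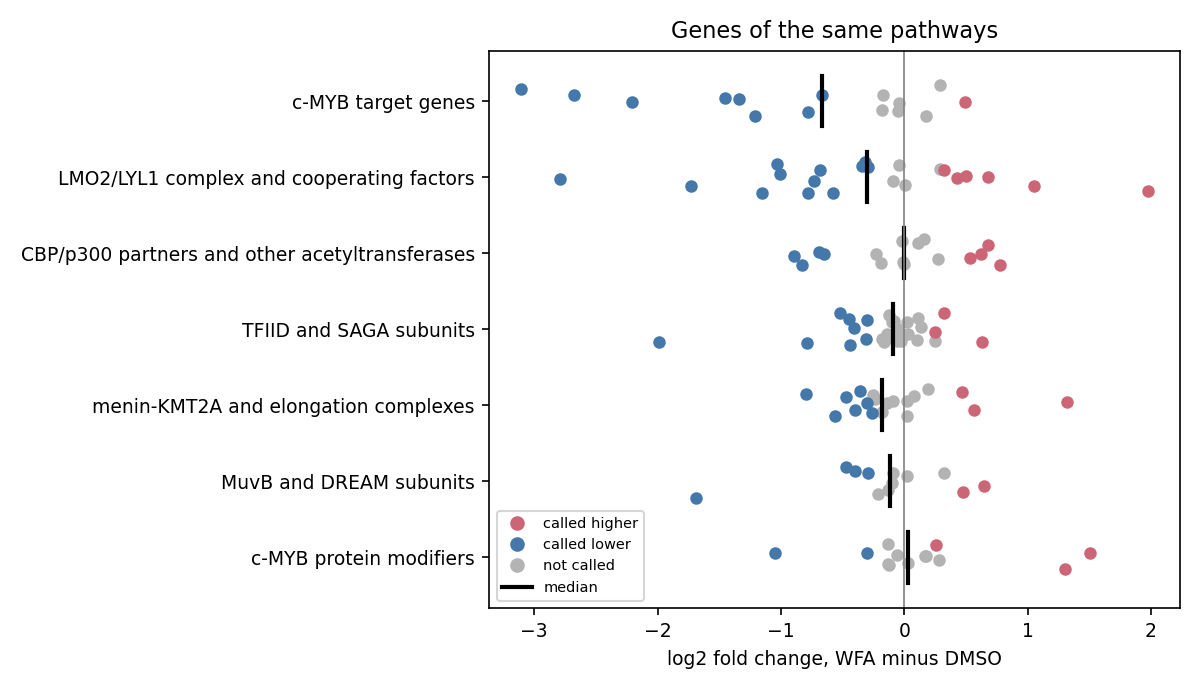
Log2 fold change, WFA minus DMSO (x axis), of each tested gene on the 7 pathway lists (y axis), coloured by call, with the list median as a black bar. The c-MYB target list has the lowest median at -0.67, and on every list genes called higher and lower lie side by side.

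Genes whose pattern over the 6 libraries was most like that of each called member were found by the root mean square difference of centred log2 CPM, among tested genes with an average log2 CPM over 1. For MYB these were C10orf2, the mitochondrial helicase Twinkle (0.107), the interferon regulatory factor IRF8 (0.112), CXorf21 (0.143), MYC (0.144) and EEF2K, the kinase of elongation factor 2 (0.145). MYBL1 was most like C17orf104 (0.094) and FAM161A (0.10), and LMO2 was most like TAGAP (0.044) and UTP6 (0.063). CREBBP stood nearest to the methyltransferase gene KMT2C (0.056) and to ECE1 (0.056). EP300 stood nearest to ATG14 (0.029) and NUFIP2 (0.031), and TAF12 to CARD8-AS1 (0.013) and RAB6A (0.027). These distances describe likeness in 6 shared libraries and carry no test.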

How the data were processed

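RNA from THP1 cells exposed for 6 h to DMSO or WFA was sequenced in 6 libraries, 3 per group, prepared per the labels with the TruSeq RNA v2 kit. The deposited values used here are counts, whole numbers of reads that the authors assigned to each gene and did not normalize. The submitters' processing notes list bcl2fastq 2.19, Trimmomatic, Bowtie2, Picard, featureCounts, DESeq2 and the build hg38, with no role or setting. The authors also deposited, for each library, a rounded score that scales the count by a size factor, a mean signal over libraries, and their own comparison with fold ratios, log2 fold changes and p-values, none of which were used. How multiply mapped reads were treated is not given in the sources used here.

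The 9 genes and all lists were chosen with earlier results of these data known. The counts were tested with edgeR 4.0.16 in R 4.3.3 (TMM, filterByExpr with a minimum count of 10, quasi-likelihood test, Benjamini-Hochberg adjustment, threshold 0.05), fitted on all 12854 genes that passed the filter and on both groups. The fits were tested on simulated counts with the same dispersion for every gene and no replicate effect. That simulation cannot show how the fits behave on paired libraries. Ratios and shares were compared by two-sided exact permutation tests. Alternatives were DESeq2 1.42.0, other scalings, no filter, a replicate block and leaving out each library. Named were all 9 genes and, per list, the 3 called genes with the smallest p-value and the first called gene against the list's main direction. Also named, outside this rule, were TAF4, KMT2A, NCOA1, NCOA3, genes too low to be tested and some cell type markers. The most similar genes were the 5 nearest to MYB and the 2 nearest to each other called member. One listed gene was matched by its older symbol, CCDC101, and 1 marker is not reported here.

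Same-numbered libraries share a replicate number and an experiment code in the labels, and their deviations from the group means correlated at 0.22, 0.33 and 0.25 across genes, against -0.26 to 0.0037 for different numbers. The numbers therefore pair the libraries. The main edgeR fit and the permutation tests did not use this pairing. It entered only the replicate block and the differences given for same-numbered pairs. Libraries of a group differed by more than sampling noise (chi-square per gene 5.92 to 10.9), so all were kept. With 3 against 3, no exact p lies under 0.1. Intervals on counts of 0 cover counting error only. Exon lengths and positions came from GENCODE 29.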

Additional observations from a re-analysis of the deposited data

How the results depend on the processing

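The log2 fold changes of MYB, MYBL1, CREBBP, EP300 and LMO2 kept their direction and their side of the threshold with DESeq2, other scalings, no filter, the replicate block and each library left out. Of these, MYBL1 came closest to the threshold, at -0.49 with an edgeR adjusted p of 0.0495 without DMSO replicate 1. For MYB the change was -2.31 with the replicate block and -2.42 to -2.14 with 1 library left out. Adjusted p-values in edgeR were far smaller with the block (1.8e-158 for MYB), although that fit has fewer residual degrees of freedom. For MYB they were also smaller with DESeq2 (3.79e-70) and in edgeR with no filter (1.57e-59), against 2.89e-09 in the main edgeR fit. Whether the block gives p-values that are too small was not tested on paired data. Calls made only with the block, such as that of LYL1, therefore rest on that fit alone. TAF12 lost its call with DESeq2, with total counts and without 4 of the 6 libraries. MYBL2 ranged from -0.19 to 0.06 when 1 library was left out. The log2 ratio of CREBBP to EP300 ranged from -0.01 to 0.06. The number of c-MYB targets called higher was 0 with DESeq2, 0 with total counts, 3 with the replicate block and 0 to 1 with 1 library left out, and that of c-MYB protein modifiers was 5 with the replicate block. Beside LYL1 and these counts, the block changed no other call among the 9 genes. With 195 to 5701 counts per gene and library, what depth adds to the spread was not tested.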
